A study of Mus musculus with 6 samples.

Results

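Hb9 and Drd4 name 2 mouse lines in which GFP marks direction-selective retinal ganglion cells, and this comparison sets the 2 Hb9 arrays against the 2 Drd4 arrays, 4 of the 6 arrays in the series. The arrays were chosen by their titles, not by any measured value. All mice were C57BL/6 at postnatal day 6, and retinas were dissociated with papain. Hb9 cells and Drd4 cells were each sorted as positive for GFP and for Thy1, a surface protein of ganglion cells, so both groups passed the same gate. The 2 remaining arrays hold Thy1-positive cells and are compared with neither group. They enter the shared estimate of the spread and the choice of each gene's probe set. Per the series text, each group's 2 replicates are from separate litters, and RNA was amplified in 2 rounds before labelling. The labels do not say which regulatory sequence drives GFP in either line, nor how many animals each sort pooled.

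Direction-selective ganglion cells fire when an image moves one way across the retina and stay nearly silent when it moves the opposite way. Cells of the Hb9 line are known to prefer upward motion and those of the Drd4 line posterior motion, so both belong to the ON-OFF class while pointing in different directions. In the first postnatal week their dendrites have reached the inner plexiform layer, and inhibitory input from starburst amacrine cells, the source of their directional tuning, is being wired. Recognition, adhesion and receptor proteins are known to act in that wiring.

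Arrays of both groups had close median intensities (45.5 to 46.5), and log2 intensities correlated across genes at 0.992 between the Hb9 replicates and 0.988 between the Drd4 replicates. As a background reference the highest of 27 Bacillus control probe sets was taken on each array. It lay between 4.95 and 5.38 on the log2 scale on these 4 arrays, and 68.2% to 78.9% of genes lay above it. Where a group lay at or below its reference on both arrays, a fold is given as a lower bound, from the brighter group's mean to the mean reference (or measured value, if higher) of the dimmer group. Values given for single arrays are log2 intensities, replicate 1 before replicate 2, and ± is the standard error of the log2 difference from limma with n = 2 arrays a group. Some technical measures separated the groups. The 3′ over 5′ signal ratio of 18S ribosomal RNA was 0.892 and 0.843 on the Hb9 arrays against 0.195 and 0.191 on the Drd4 arrays, while the ratios of actin (4.02 to 4.88) and Gapdh (3.84 to 5.04) lay closer together. Hybridisation controls had a median log2 intensity of 9.52 and 9.66 on the Hb9 arrays and 9.98 and 9.88 on the Drd4 arrays. The part of these measures in the differences below was not tested.

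Most general ganglion cell genes lay above the reference in both groups (18 or 19 of 20 on each array), and some differed between them. Pou4f1, a transcription factor of ganglion cells, read 11.17 and 11.48 on the Hb9 arrays and 11.77 and 11.33 on the Drd4 arrays. Slc17a6, the vesicular glutamate transporter of ganglion cells, read 11.39 and 11.49 against 11.65 and 11.20. Thy1, used in the gate, read 11.66 and 11.50 against 11.73 and 11.78 (difference -0.18 ± 0.10, limma adjusted p = 0.39). Of 20 genes common to ganglion cells, 2 were higher in Hb9 and 2 lower, against 4.06% and 2.06% of all genes tested, and 16 did not pass. The 2 higher were Isl1, a LIM homeodomain factor, at 3.80-fold and Dlx2, another homeodomain factor, which lost its call without Hb9 replicate 2, with either Drd4 array left out and with median centring. The list had 1 higher gene without Hb9 replicate 2 or Drd4 replicate 2, with median centring and with dim genes left out. Dlx2 was dim, reading 4.94 and 5.57 in Hb9 and 4.45 and 4.42 in Drd4 (at least 1.14-fold). Only Hb9 replicate 2 lay above the reference for it. Lower were Pou4f3 (at least 1.65-fold) and the nicotinic subunit gene Chrna6 (2.65-fold).

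Across all 18193 genes, 1113 differed at a Benjamini-Hochberg adjusted p under 0.05, which is 6.12% of those tested. Of these, 739 (4.06%) were higher in Hb9 and 374 (2.06%) were lower. A difference of at least 2-fold was seen in 264 of the higher genes (1.45% of genes tested) and 167 of the lower ones (0.918%), or 431 in all (2.37%), and 39 and 32 passed 4-fold. The median difference over all genes was 0.04. After quantile normalisation the split was 517 higher and 421 lower, and after median centring 539 and 431, so the excess of higher genes depended on the scaling. The total fell to 411 with Hb9 replicate 1 left out, to 532 when Hb9 replicate 2 was omitted and to 689 with Drd4 replicate 1 left out. With every one of the 6 arrays left out in turn 334 genes stayed called (1.84%), 205 of them higher (1.13%) and 129 lower (0.709%). Groups did not overlap for any of the 1113 called genes, nor for 49.7% of all genes. In bulk samples of sorted cells, fewer cells of a type and less RNA per cell cannot be told apart.

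**Figure D1:**
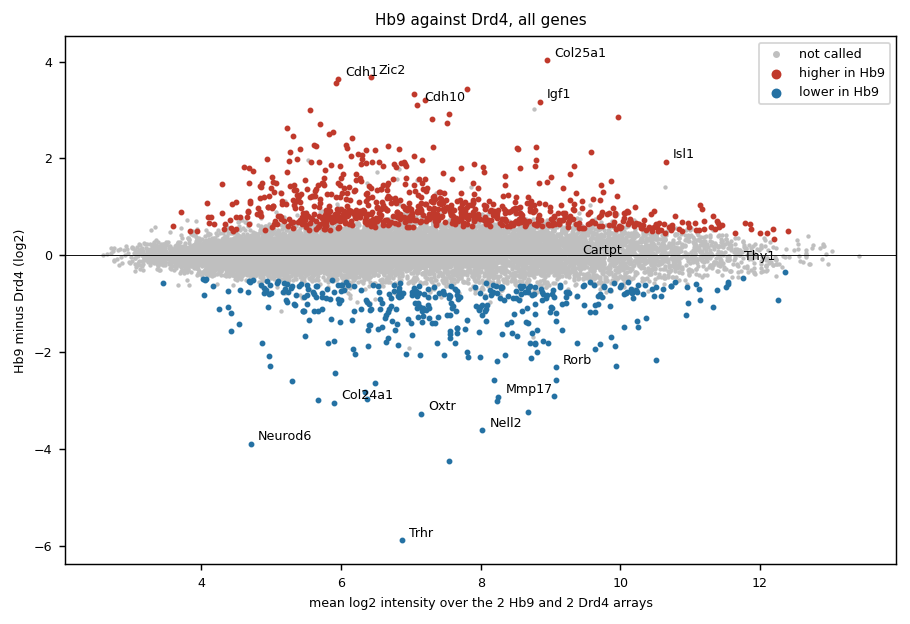
Each point is a gene, with its mean log2 intensity over the 4 compared arrays on the horizontal axis and the Hb9 minus Drd4 log2 difference on the vertical axis. Red and blue points are the 739 higher and 374 lower genes past the threshold. Trhr stands lowest at -5.89 and Col25a1 highest at 4.03, while Cartpt and Thy1 lie near 0.

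The markers of direction-selective cells divided between the lines. Col25a1, a transmembrane collagen, read 10.76 and 11.17 on the Hb9 arrays and 7.36 and 6.51 on the Drd4 arrays, which is 16.3-fold higher (4.03 ± 0.28, adjusted p = 3.5e-05). Cdh10, a classical cadherin, read 8.60 and 8.69 against 5.67 and 5.41 (3.11 ± 0.17). Igf1, insulin-like growth factor 1, read 10.62 and 10.25 against 7.33 and 7.19 (3.17 ± 0.20). Both Hb9 arrays lay above both Drd4 arrays for all 3, as for every gene called higher. All 4 probe sets of Igf1 and 3 of 4 of Cdh10 were called, whereas the other probe set of Col25a1 showed a difference of 0.03.

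The opposite markers favoured Drd4 cells. Trhr, the receptor of thyrotropin-releasing hormone, read 10.02 and 9.61 on the Drd4 arrays and 3.61 and 4.25, below the reference, on the Hb9 arrays. It was at least 22.6-fold lower in Hb9 (adjusted p = 4.1e-06), the largest difference of the comparison by measured value. Nell2, a secreted guidance protein with EGF-like repeats, read 6.32 and 6.11 on the Hb9 arrays against 9.56 and 10.10 (-3.61 ± 0.24, 12.2-fold lower). Mmp17, a membrane-bound matrix metalloproteinase, read 6.93 and 6.66 against 9.64 and 9.79 (-2.92 ± 0.18, 7.57-fold lower). No Hb9 array reached a Drd4 array for these genes, as for every gene called lower. Mmp17 has a single probe set, and only 1 of 2 probe sets was called for Trhr and for Nell2, the others showing -0.33 and -0.44.

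Other genes known from direction-selective cells went both ways or did not pass. Of 18 measured markers, 6 were higher in Hb9 and 4 lower, against 4.06% and 2.06% of all genes, and their median difference was -0.04. This list holds the markers above and was chosen with earlier results of these data known, so its count is no test of enrichment. Besides those above, Calb1 (7.58-fold), a calcium buffer, Cntn5 (3.95-fold), a contactin, and Cdh6 (2.43-fold), a cadherin, were higher. The fourth lower marker was Cdhr1 (-0.84), which lost its call with quantile normalisation and with single arrays left out. Cartpt, the CART peptide precursor found in ON-OFF direction-selective cells, read 9.27 and 9.40 in Hb9 and 9.90 and 8.87 in Drd4, a difference of -0.05 ± 0.27 with overlapping groups. Fstl4 read 5.30 and 5.09, below the reference, in Hb9 and 5.40 and 5.37 in Drd4, a difference of -0.19 ± 0.13. Gjd2, which encodes the gap junction protein connexin 36, differed by 0.16 ± 0.24 and Satb1, a chromatin organiser, by -0.29 ± 0.13. None of these genes passed. Neither did the genes the lines are named after. Mnx1, which encodes Hb9, lay below the reference on all 4 arrays, and Drd4, a dopamine receptor gene, differed by -0.02 ± 0.20. The Drd4 gene read close to the reference, 5.54 and 5.55 on the Hb9 arrays against 5.29 and 5.83, and its other probe set showed -0.46.

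Among the 12 largest rises of calls that held with each Hb9 and Drd4 array left out, 8 were not among the markers above. Zic2, a zinc-finger factor, read 8.45 and 8.08 in Hb9 and 4.75 and 4.43 in Drd4, at least 9.15-fold. Cdh1, E-cadherin, was at least 6.52-fold higher, and Cxcr4, a chemokine receptor that steers migrating neurons and axons, read 7.81 and 7.62 against 4.39 and 3.91 (at least 6.25-fold). Both Drd4 arrays lay below the reference for these 3 genes. Npy, a neuropeptide gene, read 9.10 and 8.31 against 5.35 and 5.43 (9.99-fold), and Cbln4, a secreted synaptic organiser, read 9.20 and 9.86 against 5.41 and 6.77 (10.9-fold). Sorcs1, a sorting receptor, was at least 3.96-fold higher, and Gpc6, a glypican, 7.04-fold higher with all 5 of its probe sets called. Pcdh11x, a protocadherin, read 11.20 and 11.60 against 9.29 and 7.81 (7.21-fold), with the Drd4 replicates further apart than for most of these genes.

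The largest falls included receptors, a channel and surface proteins. Oxtr, the oxytocin receptor, read 5.42 and 5.59 in Hb9 and 8.87 and 8.68 in Drd4 (9.65-fold lower). Its Hb9 values lay close to the references of 5.38 and 5.25, and its other probe set showed -0.34. Neurod6, a basic helix-loop-helix factor, read 2.85 and 2.67 against 7.06 and 6.25 (at least 2.53-fold lower), and Mreg, a melanosome transport protein, 7.14 and 6.96 against 10.69 and 9.90 (9.46-fold lower). Every Hb9 array lay below every Drd4 array for these 3 genes, as for every gene called lower. Kcna5, a voltage-gated potassium channel, was at least 3.59-fold lower, Lrp4, the agrin receptor, at least 5.80-fold, the fibrillar collagen gene Col24a1 at least 4.29-fold and the semaphorin gene Sema5a at least 5.42-fold. Kctd4 (8.02-fold) and the stress-responsive gene Ndrg1 (7.52-fold, with all 5 probe sets called) were lower on well measured signals in both groups. These 24 genes were chosen to keep their call with each Hb9 and Drd4 array left out, so that result was fixed by the choice. Their calls also held with either Thy1 array left out. Of these genes, 11 have a single probe set, 5 have several that were all called the same way and 8 have further probe sets that were not called. Among all 188 called genes named in this report, 106 have several probe sets of which only some were called.

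**Figure D2:**
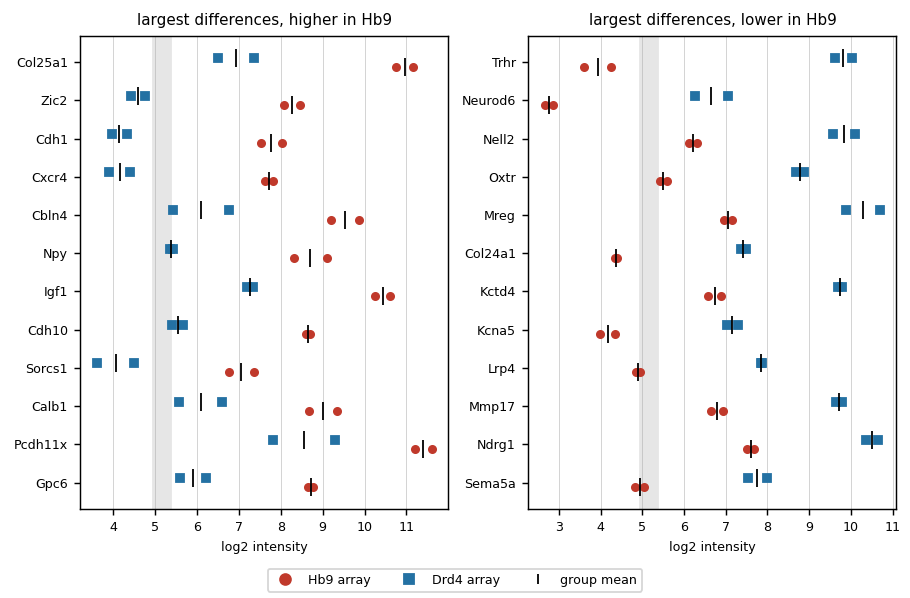
Log2 intensity on each Hb9 array (circles) and each Drd4 array (squares) for the 12 genes with the largest rise in Hb9 (left) and the 12 with the largest fall (right). They were taken among calls without overlap, above the reference in the higher group and kept with each Hb9 and Drd4 array left out. Clone names were passed over. Vertical ticks are group means, and the grey band spans the background references of 4.95 to 5.38. By that choice no gene shown has overlapping groups. Both Hb9 arrays lie below the band for Trhr, Neurod6, Col24a1, Kcna5 and Lrp4.

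For 8 of these 24 genes the RefSeq promoter table (build GRCm38.p6) holds a window at the outermost start of the gene. The 250 bases upstream of the start are shown for the 2 largest of them in each direction, because they let the start regions of genes that separate the lines most be compared directly. Cxcr4 (chr1:128592300-128592549) and Cbln4 (chr2:172043467-172043716) were higher in Hb9, and Neurod6 (chr6:55681264-55681513) and Mreg (chr1:72212315-72212564) were lower. All lie on the minus strand and are written 5′ to 3′ towards the gene, with motif matches in capitals.
Cxcr4: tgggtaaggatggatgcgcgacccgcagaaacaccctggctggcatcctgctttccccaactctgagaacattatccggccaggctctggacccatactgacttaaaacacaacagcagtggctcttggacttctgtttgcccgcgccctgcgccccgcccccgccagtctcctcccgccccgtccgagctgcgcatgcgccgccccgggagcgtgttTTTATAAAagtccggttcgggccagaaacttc
Cbln4: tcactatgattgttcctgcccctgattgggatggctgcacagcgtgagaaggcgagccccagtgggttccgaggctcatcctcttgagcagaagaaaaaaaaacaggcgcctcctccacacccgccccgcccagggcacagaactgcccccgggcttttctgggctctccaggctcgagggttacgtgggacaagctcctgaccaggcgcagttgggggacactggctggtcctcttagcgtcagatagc
Neurod6: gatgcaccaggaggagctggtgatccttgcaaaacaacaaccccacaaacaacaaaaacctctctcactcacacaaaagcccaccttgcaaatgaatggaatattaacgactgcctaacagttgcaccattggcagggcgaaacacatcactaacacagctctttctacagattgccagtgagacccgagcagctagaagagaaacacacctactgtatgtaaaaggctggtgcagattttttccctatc
Mreg: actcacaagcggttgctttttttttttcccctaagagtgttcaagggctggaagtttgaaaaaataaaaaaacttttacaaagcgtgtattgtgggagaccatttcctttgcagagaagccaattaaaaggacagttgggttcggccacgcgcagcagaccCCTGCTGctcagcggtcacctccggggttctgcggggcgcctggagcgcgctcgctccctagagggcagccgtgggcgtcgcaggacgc

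Both strands were searched for 4 motifs, chosen with the differences known. The TATA box was added after the other 3 had been searched, and these windows were picked after those of Col25a1, Cdh10 and Igf1, which lie inside the annotated genes, had been looked at. These were the TATA box TATAAA, the E-box CAGATG bound by Neurod factors, the half-site AGGTCA bound by ROR receptors and the core CAGCAGG bound by Zic factors. In the Cxcr4 window TATAAA begins 30 bases before the start, and the reverse strand match TTTATA overlaps it from base 32. The Mreg window holds CCTGCTG, the reverse complement of the Zic core, from base 89 before the start. The windows of Cbln4 and Neurod6 hold none of the 4. The shares that follow use the first listed start of each gene, which need not be the outermost one. Over the windows of 14452 genes, TATAAA was present in 9.02% of all, 8.80% of the higher and 6.45% of the lower genes. CAGATG was present in 11.6%, 11.3% and 8.60%. AGGTCA was present in 12.2%, 9.31% and 7.89%, and CAGCAGG in 8.87%, 6.60% and 7.53%. No motif was more frequent among the called genes than among all genes.

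Transcription factors differed by family. Of the neuronal transcription factor list 33% was called, beside 6.12% of all genes tested. As this and the other lists were chosen with earlier results known, no such share tests enrichment. Of 97 neuronal transcription factor genes 21 were higher in Hb9 and 11 lower (17 and 7 without Hb9 replicate 2), with a median difference of 0.19 beside 0.04 over all genes. Of these, 14 higher and 7 lower genes were called whichever array was left out. The families below were read off after their values had been seen.

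Zic genes, which encode zinc-finger factors and include Zic2, known from ganglion cells with uncrossed axons, were higher in 3 of 4 cases. Zic1 read 8.59 and 9.18 in Hb9 and 5.74 and 6.56 in Drd4 (6.65-fold), and Zic5 was at least 2.41-fold higher. Zic4 differed by 0.08 ± 0.15 and did not pass. Neurod genes went the other way. Neurod1 read 7.71 and 7.60 against 9.27 and 9.25 (3.03-fold lower), Neurod2 7.23 and 7.55 against 8.74 and 8.76 (2.57-fold lower), and Neurod6 is given above. Neurod4, below the reference in both groups, did not pass.

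Of 6 Iroquois homeobox genes 4 were lower in Hb9 and 0 higher. Irx4 read 6.48 and 6.97 in Hb9 and 8.55 and 8.54 in Drd4 (3.53-fold lower). Irx5 (2.92-fold) and Irx6 (2.65-fold) were also lower. Irx2 (1.72-fold) lost its call with either Hb9 array or Drd4 replicate 2 left out (adjusted p = 0.22, 0.089 and 0.12). Irx3 differed by 0.50 ± 0.17 in the opposite direction, without passing.

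In 2 other families single members went opposite ways. Bcl11a, a zinc-finger repressor, read 7.80 and 8.05 in Hb9 and 6.36 and 5.10, above the reference on 1 of 2 arrays, in Drd4 (4.58-fold higher), while its relative Bcl11b read 10.06 and 10.59 against 11.57 and 11.57 (2.37-fold lower). Of 4 nuclear factor I genes, Nfib was at least 3.24-fold higher, Nfia read 5.98 and 6.04 against 7.17 and 7.05 (2.15-fold lower), and 2 did not pass. Among single factors, Rorb, an orphan nuclear receptor of the developing retina, read 7.82 and 8.03 against 10.27 and 10.20 (4.95-fold lower). Isl1 read 11.54 and 11.69 against 9.74 and 9.63, with both probe sets called. Eya1 (at least 4.25-fold), Dach2 (4.53-fold), Meis2 (3.89-fold) and Nr2f2 (3.75-fold), which are developmental regulators, were higher in Hb9.

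Genes used as markers of other ganglion cell types also separated these sorts. Calls made up 40% of this list and 7.69% of the genes with graded levels below, beside 6.12% of all genes. Of 30 such genes 8 were higher in Hb9 and 4 lower (5 and 3 without Hb9 replicate 2), and the median difference was 0.22. The 4 lower genes were the Iroquois genes just described. The higher ones included, besides Zic1 and Zic2, Tpbg, a leucine-rich membrane protein, which read 7.25 and 7.13 in Hb9 and 5.11 and 4.83 in Drd4 (4.66-fold, all 3 probe sets called, above the reference on 1 of 2 Drd4 arrays), and Tac1, the substance P precursor (3.60-fold). Eomes and Tbr1, T-box factors of other ganglion cell types, were higher by 0.88 and 0.74 and lost their calls with single arrays left out. Calb2, the calretinin gene, differed by -0.31 ± 0.18 and did not pass. Of 26 genes known for graded levels over the retina 2 were higher in Hb9, Nr2f2 and the Eph receptor gene Epha6 (at least 1.38-fold), and 0 were lower. With dim genes left out 1 was higher.

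**Figure D3:**
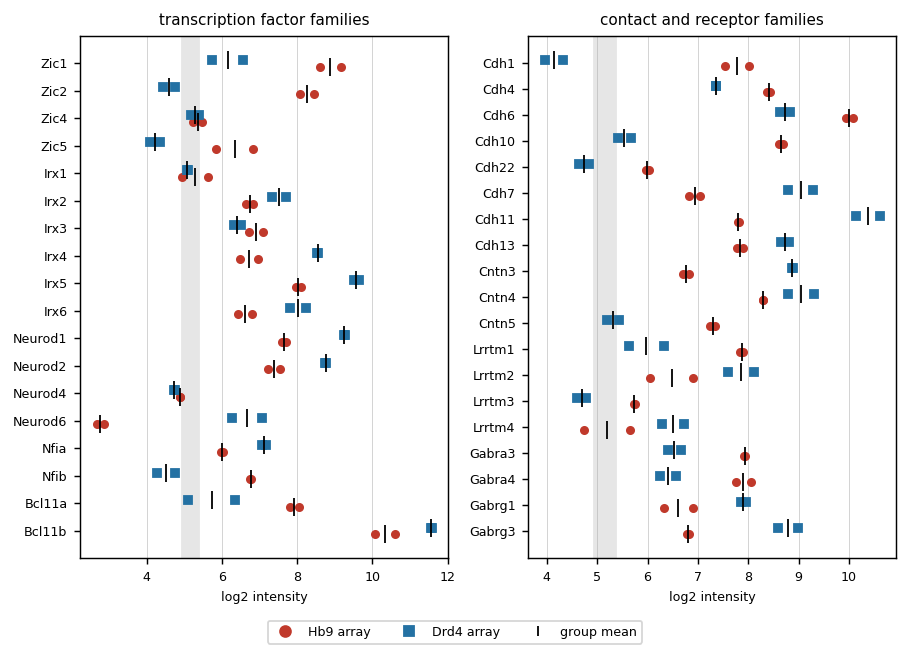
Log2 intensity on each Hb9 array (circles) and Drd4 array (squares) for small families of transcription factors (left) and of contact proteins and GABA-A receptor subunits (right). Vertical ticks are group means and the grey band spans the background references of 4.95 to 5.38. Of the Zic genes 3 of 4 lie higher in Hb9, and 3 of 4 Neurod and 4 of 6 Iroquois genes lie lower.

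Classical cadherins, adhesion proteins that bind like to like, changed in 8 of 18 cases, 5 higher and 3 lower in Hb9, and the median difference was 0.02. That is 44.4% of the list, beside 6.12% of all genes. Besides Cdh1, Cdh10 and Cdh6, Cdh4 read 8.37 and 8.44 in Hb9 against 7.37 and 7.35 (2.06-fold higher), and Cdh22 was at least 1.90-fold higher. Cdh11 read 7.81 and 7.79 against 10.61 and 10.13 (5.92-fold lower) and Cdh7 6.82 and 7.04 against 9.29 and 8.79 (4.30-fold lower), with all probe sets of both called. Cdh13 was 1.85-fold lower but not with every array left out. The groups did not overlap for any of these 8 genes, as for every called gene and 49.7% of all genes.

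Of 25 protocadherin, Fat and Celsr family genes 3 were higher and 3 lower (24% called, beside 6.12% of all genes). Pcdh19 (3.70-fold) and Fat3 (2.74-fold), which restricts dendrites of amacrine cells, were higher along with Pcdh11x. Ret, a receptor tyrosine kinase with cadherin repeats, was lower (2.78-fold), reading 9.36 and 9.68 against 11.13 and 10.87. The lower count was 1 with Hb9 replicate 1 or Drd4 replicate 1 left out and 6 with either Thy1 array left out, as with only the Hb9 and Drd4 arrays fitted, and 5 with the mean of all probe sets.

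Immunoglobulin recognition proteins were higher in 8 and lower in 4 of 45 cases, with a median difference of -0.04. That is 26.7% called, beside 6.12% of all genes. Cntn5 read 7.34 and 7.25 in Hb9 and 5.20 and 5.43 in Drd4 (3.95-fold higher), and Cntn3, another contactin, 6.70 and 6.82 against 8.86 and 8.88 (4.31-fold lower). Cntnap5a, a contactin-associated protein (4.11-fold), and Jam2, a junctional adhesion protein (3.74-fold), were higher, Jam2 on 1 of 5 probe sets. The counts were 4 and 1 without Hb9 replicate 1, 5 and 3 without Hb9 replicate 2, and 7 and 2 without Drd4 replicate 1, and 4 were higher with the mean of all probe sets.

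Leucine-rich and synaptic organiser genes were higher in 6 and lower in 7 of 57 cases (22.8% called, beside 6.12% of all genes). Lrrtm1 read 7.84 and 7.89 in Hb9 and 6.32 and 5.63 in Drd4 (3.70-fold higher), and Lrrtm3 was at least 1.59-fold higher. The other probe sets of Lrrtm1 showed -0.02 and -0.10. Lrrtm2 (2.60-fold) and Lrrtm4 (2.47-fold) were lower, Lrrtm4 being above the reference on 1 of 2 Hb9 arrays, and both lost their calls without Hb9 replicate 1 (adjusted p = 0.095 and 0.11) or Drd4 replicate 1 (adjusted p = 0.057 and 0.068). Flrt3, a fibronectin leucine-rich protein, read 7.08 and 7.21 against 9.48 and 9.16 (4.52-fold lower). It was the 1 lower gene of this list called in every leave-one-out fit, since the counts became 7 and 1 without Hb9 replicate 1 and 5 and 1 without Drd4 replicate 1.

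Axon guidance genes went both ways. Calls made up 22.6% of the semaphorin list and 16.3% of the list of other guidance genes, beside 6.12% of all genes. Of 31 semaphorin, plexin and neuropilin genes 4 were higher and 3 lower (1 and 2 without Hb9 replicate 1, and 1 higher with the mean of all probe sets). Nrp2, a semaphorin co-receptor, read 7.61 and 7.72 in Hb9 and 9.85 and 9.73 in Drd4 (4.35-fold lower, all 4 probe sets called), and Sema6d was 2.15-fold higher. Of 43 other guidance genes 4 were higher and 3 lower (2 and 2 without Hb9 replicate 1, 2 and 5 with the mean of all probe sets, and 2 higher with dim genes left out). The lower ones included Dab1, the adaptor of Reelin signalling, at 3.49-fold with all 5 probe sets called.

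Matrix and proteoglycan genes changed in 11 of 44 cases, 6 higher and 5 lower (25% called, beside 6.12% of all genes). Hs3st4, a heparan sulfate sulfotransferase, was 3.53-fold higher and Hs6st2, another one, 2.22-fold lower. The metalloproteinase gene Mmp9 was 2.56-fold higher, while Mmp16 (2.93-fold) was lower together with Mmp17. Other probe sets of Mmp16 showed -0.96, -0.02 and 0.05. Tnr, tenascin R, was 2.11-fold lower.

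**Figure D4:**
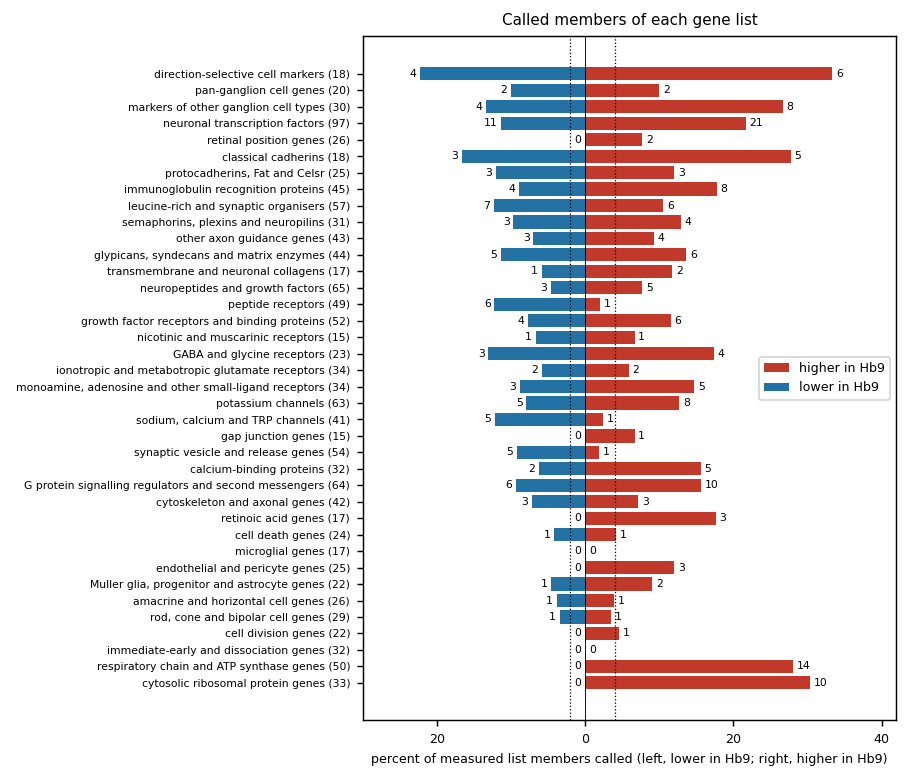
Percent of the measured members of each gene list (number in brackets) that were called higher in Hb9 (red, right) or lower (blue, left), with the number called beside each bar. Dotted lines mark the shares of all genes, 4.06% and 2.06%. Microglial and immediate-early genes have no called member, and 14 respiratory chain genes and 10 ribosomal protein genes were called higher.

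Neuropeptide and growth factor genes were mostly not called, with 5 of 65 higher and 3 lower (4 and 1 without Hb9 replicate 1, 5 and 1 without Hb9 replicate 2, 6 and 1 without Drd4 replicate 1, and 1 lower with the mean of all probe sets). The called genes were still 12.3% of this list, beside 6.12% of all genes. Npy and Igf1 led the higher genes, followed by Tac1, which read 10.03 and 10.48 in Hb9 and 8.84 and 7.98 in Drd4, and Scg2, secretogranin 2 (2.21-fold). Insulin-like growth factor binding protein genes were higher in 3 of 8 cases, in a family read off after its values had been seen. Igfbp5 read 9.74 and 9.42 against 8.14 and 8.05 (2.80-fold), Igfbp7 7.35 and 7.16 against 6.21 and 5.55 (2.60-fold), and Igfbpl1 was 1.92-fold higher. Only 1 of 3 probe sets of Igfbp7 was called, and 1 of 2 for Igfbp5 and for Igfbpl1. Of these 3, Igfbp5 is of the kind that carries insulin-like growth factors outside the cell.

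Receptors of peptides leaned to Drd4 cells. Of 49 measured, 6 were lower in Hb9 (2.06% of all genes) and 1 higher (4.06%), while the median difference was -0.05. After Trhr and Oxtr came Ghr, the growth hormone receptor (2.64-fold lower), and Sstr4, a somatostatin receptor (2.37-fold lower), while Adcyap1r1 and Npy1r lost their lower calls with single arrays left out. Calcrl, a receptor of the calcitonin family, was at least 1.40-fold higher. Growth factor receptors and binding proteins were higher in 6 and lower in 4 of 52 cases (19.2% called, beside 6.12% of all genes). Lifr, a cytokine receptor (2.99-fold), was higher, and Alk (2.31-fold), Ret and the follistatin-like gene Fstl5 (3.20-fold) were lower.

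Receptors for GABA and glycine, the transmitters of retinal inhibition, changed in 7 of 23 cases, 4 higher and 3 lower. That is 30.4% of the list, beside 6.12% of all genes. Subunit families were read off after their values had been seen. Of 5 GABA-A alpha subunit genes Gabra3 and Gabra4 were higher and 3 did not pass. Gabra3 read 7.91 and 7.94 in Hb9 and 6.41 and 6.66 in Drd4 (2.63-fold), and Gabra4 7.75 and 8.05 against 6.57 and 6.25 (2.81-fold). Both gamma subunit genes measured were lower. Gabrg3 read 6.82 and 6.79 against 9.00 and 8.59 (3.97-fold), and Gabrg1 6.32 and 6.90 against 7.95 and 7.86 (2.45-fold). No Hb9 array overlapped a Drd4 array for these 4 subunits, as for every called gene, and they were called with every array left out. Glra3, a glycine receptor subunit, was at least 1.68-fold higher. Probe sets that were not called showed 0.08 for Gabra3, 0.37 for Gabra4, -0.02 for Gabrg3 and -0.09 for Glra3.

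Excitatory and modulatory receptors also went both ways. Calls made up 11.8% of the glutamate list, 13.3% of the acetylcholine list and 23.5% of the monoamine list, beside 6.12% of all genes. Of 34 glutamate receptor genes 2 were higher and 2 lower, with Grin3a, an NMDA receptor subunit (3.69-fold higher), called with every array left out. The counts were 1 and 0 with either Hb9 array left out, 3 and 1 without Drd4 replicate 1 and 1 and 1 without Drd4 replicate 2. Quantile normalisation or the mean of all probe sets left 1 higher, and the replicate block 1 lower. Of 15 acetylcholine receptor genes Chrna5 was higher (at least 1.17-fold) and Chrna6 lower, reading 7.94 and 8.00 against 9.48 and 9.28, and 2 were higher with either Thy1 array left out or with only the Hb9 and Drd4 arrays, and 0 with dim genes left out. Among 34 receptors of monoamines and other small ligands 5 were higher and 3 lower (2 and 2 without Hb9 replicate 1). Htr2c, a serotonin receptor, was at least 2.42-fold lower, and Htr5b, another one, 2.80-fold higher. The other probe set of Htr2c showed 0.02. Grin3a and Htr5b were above the reference on 1 of 2 Drd4 arrays.

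Of 63 potassium channel genes 8 were higher and 5 lower (6 and 1 without Hb9 replicate 1, 6 and 3 without Hb9 replicate 2, and 5 higher with the mean of all probe sets). Kcnd2, which carries A-type current, read 9.42 and 9.83 in Hb9 and 7.32 and 7.50 in Drd4 (4.64-fold higher), and Kcnip4, which encodes a partner of such channels, was 3.03-fold higher. Kcnk2, a tandem-pore channel, was 2.74-fold higher. Kcnip4 and Kcnk2 were above the reference on 1 of 2 Drd4 arrays. Calls made up 20.6% of the potassium channel list and 14.6% of the next list, beside 6.12% of all genes. Of 41 sodium, calcium and TRP channel genes 1 was higher and 5 lower (1 and 2 without Hb9 replicate 1, 2 and 2 without Drd4 replicate 1, 2 and 5 without Thy1 replicate 2, and 2 higher with the mean of all probe sets or an offset of 16). Trpc6, a cation channel, was at least 1.75-fold lower, Cacna1c, an L-type calcium channel subunit, 2.05-fold lower, and Cacna2d3 at least 1.52-fold higher.

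Release and signalling genes went both ways. Calls made up 11.1% of the vesicle list and 25% of the G protein list. They made up 21.9% of the calcium-binding list and 17.6% of the retinoic acid list, beside 6.12% of all genes. Of 54 synaptic vesicle and release genes 1 was higher and 5 lower, with Cplx1, complexin 1, at 10.67 and 10.69 in Hb9 and 11.62 and 11.59 in Drd4 (1.90-fold lower) and Syt4, a synaptotagmin, 1.89-fold lower. The lower count was 2 with either Hb9 array or Drd4 replicate 1 left out and 6 with either Thy1 array left out, where 2 were higher, as without the intensity trend or with only the Hb9 and Drd4 arrays. Median centring gave 8 lower and the replicate block 3. Of 64 genes of G protein regulation and second messengers 10 were higher and 6 lower (3 and 6 without Hb9 replicate 1, 6 and 7 without Hb9 replicate 2). Pde1c, a calcium-dependent phosphodiesterase, read 9.44 and 9.43 against 11.72 and 11.46 (4.46-fold lower), and Kctd8, an auxiliary protein of GABA-B receptors, was 3.50-fold lower. Rgs20 (3.03-fold) and the kinase gene Prkch (2.35-fold) were higher, and Rgs20 lost its call with the mean of all probe sets (difference 0.57). Of 32 calcium-binding protein genes 5 were higher and 2 lower (3 and 1 without Hb9 replicate 1, 4 and 1 without Hb9 replicate 2 or Drd4 replicate 1, and 3 higher with dim genes left out), led by Calb1, at 9.34 and 8.68 against 5.57 and 6.60, and by Camkv (4.18-fold lower). Of 17 retinoic acid genes 3 were higher and 0 lower, among them the binding proteins Crabp2 (3.79-fold) and Crabp1 (at least 2.98-fold).

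Respiratory chain and ribosomal protein genes were called in 1 direction and by small differences. Of 50 respiratory chain and ATP synthase genes 14 were higher in Hb9 and 0 lower, with a median difference of 0.33 beside 0.04 over all genes, and the largest was Atp5l (1.88-fold). Without Hb9 replicate 1 the count was 0, without Hb9 replicate 2 it was 2 and without Drd4 replicate 1 it was 4. Of 33 cytosolic ribosomal protein genes 10 were higher and 0 lower (median 0.40), beside 4.06% of all genes higher. The count was 1 with Hb9 replicate 1 or Drd4 replicate 1 left out and 4 without Hb9 replicate 2. It was 6 with quantile normalisation or median centring, 5 with the mean of all probe sets and 4 without the intensity trend. Rpl14, at 6.97 and 7.01 against 5.63 and 5.84 (2.39-fold), was the 1 ribosomal gene called with every array left out. The 18S ratios given above differed between the same groups, and their part in these counts was not tested.

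Markers of other cells bear on what each sort held. Of the endothelial and pericyte list 12% was called, beside 6.12% of all genes. Of 25 endothelial and pericyte genes 3 were higher in Hb9 and 0 lower (1 higher without Hb9 replicate 1, 7 without Drd4 replicate 1). The summed intensity of 7 pericyte genes was 1893 and 1529 on the Hb9 arrays against 1100 and 245 on the Drd4 arrays. Rgs5, a pericyte gene, read 10.47 and 10.06 in Hb9 and 9.50 and 5.01 in Drd4, Pdgfrb, the receptor of platelet-derived growth factor, 6.82 and 6.20 against 5.93 and 3.14, and Abcc9, a potassium channel regulator, 7.31 and 7.43 against 6.77 and 4.54. On Drd4 replicate 2 all 3 lay below the reference. None of these 3 passed in the fit to all arrays. Without Drd4 replicate 1 each was called, with differences of 5.26, 3.37 and 2.83. Without Drd4 replicate 2 only Rgs5 was called and the differences were 0.76, 0.57 and 0.60. The 3 calls were Higd1b, a pericyte gene (0.98 ± 0.18, lost without Hb9 replicate 1 and above the reference on 1 of 2 Hb9 arrays), Nid1, a basement membrane protein (1.93 ± 0.43, below the reference on Drd4 replicate 2), and Lama4, a laminin chain (2.14-fold higher). Nid1 lost its call with either Hb9 array left out (adjusted p = 0.15 and 0.070), with quantile normalisation (0.0504), the mean of all probe sets (0.18) and robust moderation (0.16). The endothelial genes Pecam1 and Cldn5 lay below the reference on all 4 arrays. Over the whole endothelial and pericyte list 7 of 25 genes lay at or below it on all 4, while 11 to 17 lay above it on each array.

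Microglial genes were called in 0 of 17 cases in the limma fit with all arrays, with summed intensities of 2061 and 2590 on the Hb9 arrays and 3686 and 1338 on the Drd4 arrays. Without Drd4 replicate 1, 3 were higher, and without Drd4 replicate 2, 2 were lower, and the Hb9 sums lay between those of the Drd4 replicates. At an unadjusted p under 0.05, 0 microglial genes were higher and 1 lower. Immediate-early and dissociation genes were called in 0 of 32 cases by limma, with 2 higher and 2 lower at an unadjusted p under 0.05, and 1 was called higher without Drd4 replicate 1 and 2 lower with either Thy1 array left out or with only the Hb9 and Drd4 arrays fitted. Of 22 Muller glia, progenitor and astrocyte genes 2 were higher and 1 lower, with 0 higher when either Hb9 array or Drd4 replicate 1 was left out and 1 higher with either Thy1 array left out. Median centring also left 0 higher, and 1 was higher with quantile normalisation, the mean of all probe sets, dim genes left out, no intensity trend, the replicate block or only the Hb9 and Drd4 arrays. Of 26 amacrine and horizontal cell genes and of 29 rod, cone and bipolar cell genes, 1 each was higher and 1 lower, and the higher ones were Calb1 and Isl1, which are also ganglion cell genes. In the amacrine list 2 were higher and 2 lower without Drd4 replicate 2, and 2 higher and 1 lower with either Thy1 array left out or with only the Hb9 and Drd4 arrays. The amacrine gene Gad1 lay at or below the reference on all 4 arrays. Over the whole amacrine and horizontal list 12 of 26 genes did so, while 11 to 14 lay above it on each array. Calls made up 13.6% of the Muller glia list, 7.69% of the amacrine list and 6.9% of the rod, cone and bipolar list. The share of all genes was 6.12%. How far vessel or microglial RNA contributes to any single difference was not tested.

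**Figure D5:**
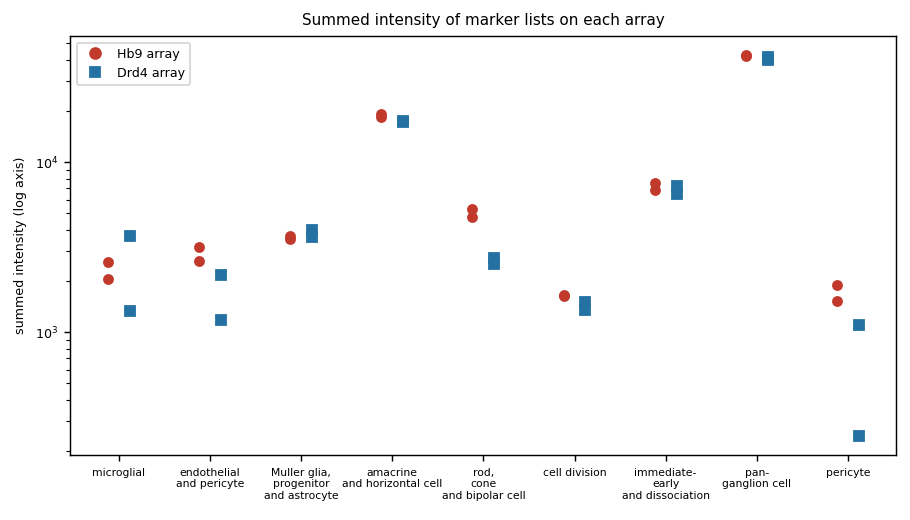
Summed intensity (log axis) of marker lists on each Hb9 array (circles) and Drd4 array (squares). The pericyte sum is 245 on Drd4 replicate 2 and 1100 to 1893 on the other 3 arrays, whereas sums of general ganglion cell genes lie close together on all 4. The list of rod, cone and bipolar cell genes includes Isl1, which was 3.80-fold higher in Hb9.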

How the data were processed

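RNA from sorted retinal cells was hybridised to Affymetrix mouse arrays, 2 each for Hb9, Drd4 and Thy1. The authors deposited linear intensities per probe set, and how these were corrected, summarised and normalised is not given in the sources. Of 45101 probe sets, 34945 name 1 gene. Each of 18193 genes was represented by its brightest probe set, by mean log2 over 6 arrays. Groups were compared on log2 intensity with limma 3.58.1 in R 4.3.3, with 3 group means, an intensity trend and two-sided p-values adjusted by Benjamini-Hochberg over all genes at 0.05. The median standard error was 0.15, and the number of arrays limits the precision. With 2 arrays a group, exact permutation p-values reach 0.333 at the lowest, so none was used. The script was tested on simulated data. Alternatives covered scaling, probe sets, dim genes, moderation, array weights, the replicate number, an offset of 16, a minimum size, the samples fitted and each array left out.

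The comparison, gene lists and motifs were chosen with earlier results of these data known. Named genes are the 12 largest per direction among calls without overlap, above the reference in the higher group and kept with each Hb9 and Drd4 array left out. Up to 4 list members per direction and 13 set genes (the markers, Cartpt, Cdh6, Fstl4, Thy1, Mnx1, Drd4 and Gjd2) were added. Families, vessel genes, checks of other cell types, genes behind small counts and those in the other observations were picked with their values in view. Genes were named from the platform annotation, and 34741 probe sets matched RefSeq by Entrez identifier.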

Additional observations from a re-analysis of the deposited data

How the results depend on the processing

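With 1 array left out, each fit anew, the number called ranged from 411 (without Hb9 replicate 1) to 1244 (without Thy1 replicate 1), beside 1113 with all arrays. Higher genes ranged from 263 to 857, beside 739, and lower genes from 148 to 387, beside 374. With a minimum difference of 1 on the log2 scale 431 were called, 264 higher and 167 lower. Under the other settings the total stayed between 938 (quantile normalisation) and 1247 (only the Hb9 and Drd4 arrays). The replicate number as a block gave 1030 calls, 701 higher and 329 lower. Deviations of same-numbered arrays correlated at -0.279 for Hb9 and Drd4, at -0.191 for Hb9 and Thy1 and at 0.370 for Drd4 and Thy1. Not every pair exceeded 0.1 and no label ties the numbers, so the samples were taken to share only a number.

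Of 188 named genes that were called, 124 were called with each of the 6 arrays left out, and 64 were lost in at least 1 such fit. The mean of all probe sets ended 32 of the 188 calls, quantile normalisation 11, the block 10 and median centring 7. None of the 188 changed direction in any alternative. Of the 188, 54 have 1 probe set, 28 have several all called the same way and 106 have several of which only some were called. None had a probe set called the other way. Among 16 named genes that were not called, signs changed with single arrays left out. The difference ranged over these fits from -0.57 to 0.47 for Cartpt (0.012 without Hb9 replicate 1), -0.29 to 0.25 for Drd4, -4.51 to 0.68 for Eif2s3y, -0.11 to 0.44 for Gjd2 (-0.020 without Hb9 replicate 2), -0.15 to 0.56 for Irx1, -0.31 to 0.059 for Mnx1 and -0.041 to 0.20 for Zic4 (-0.023 without Drd4 replicate 2). With a single array left in a group, that array was assumed to vary like the other groups. Signal limits the dimmest genes, since 3596 genes lay at or below the reference on all 4 arrays, 37 of them called.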

Other observations

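These genes were picked with their values in view. Soluble guanylate cyclase, the receptor enzyme of nitric oxide, was higher in Hb9 in 2 of 3 measured subunit genes. Gucy1a1 read 9.84 and 9.72 on the Hb9 arrays and 7.88 and 7.75 on the Drd4 arrays (3.90-fold), and Gucy1b1 read 9.05 and 8.76 against 7.15 and 7.22 (3.29-fold). These subunits form the enzyme together, and neither group overlapped the other, as for every called gene. Only 2 of 3 probe sets of Gucy1a1 and 1 of 2 of Gucy1b1 were called.

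Tcf7l2, a transcription factor of Wnt signalling, read 6.87 and 7.29 in Hb9 and 4.74 and 4.43 in Drd4, at least 4.02-fold higher. Jag1, a Notch ligand, read 6.81 and 6.70 against 5.28 and 3.67 (2.28 ± 0.39, limma adjusted p = 0.0077), above the reference on 1 of 2 Drd4 arrays, and lost its call with robust moderation (adjusted p = 0.059). Malat1, a nuclear noncoding RNA, read 8.53 and 9.05 against 11.19 and 10.98 (4.90-fold lower), with 4 of 7 probe sets called and the others as small as -0.10. Its probe sets therefore gave different sizes for the same RNA.

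Hb9 replicate 2 stood apart for 2 genes of the mouse Y chromosome. Eif2s3y, a translation factor gene, read 8.61 and 3.42 in Hb9 and 7.88 and 7.98 in Drd4. Kdm5d, a histone demethylase gene, read 5.56 and 3.58 against 5.77 and 5.65. Counts without Hb9 replicate 2 are given beside the lists they move by over 1.5 times.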
